A study of Drosophila melanogaster with 3 samples.

Results

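The genes elav, fne, nSyb, Syt1, brp, para, Sh, cac and futsch make proteins that neurons need to process their RNA, release transmitter, fire action potentials and keep their axons in shape. These 9 genes of Drosophila melanogaster were chosen by name and located in the Ensembl release 115 annotation, out of 13945 protein-coding genes on 6 chromosome arms. Binding of achintya (achi), a homeodomain protein of the TGIF class, had been mapped by chromatin immunoprecipitation and sequencing in whole prepupae, with both sexes pooled and the age unknown. The animals came from 1 transgenic line, named achi-GFP, in which GFP was joined to the C-terminus of achi. The precipitation used an antibody against GFP, although another label field lists achi as the antibody. There was 1 group of 3 biological replicates and no second condition, so nothing could be tested between groups and no p-value is given. The measurements are the authors' peak lists: 30000 regions in each replicate and in the pool of all 3, and 8998 optimal peaks that passed a threshold on reproducibility. The pooled list was deposited under a name that says it holds peaks and background, so its weaker regions need not be peaks. In replicates 1, 2 and 3, 9744, 10649 and 10283 regions had a -log10 q-value (estimated false discovery rate) of at least 2. Read depth is unknown, and precipitates from animals without the tag were not analysed here.

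Neurons differ from other cells by a shared set of gene products. RNA-binding proteins of the ELAV family select neuronal splice forms and long 3' ends. Voltage-gated sodium, potassium and calcium channels carry the action potential to the nerve ending, where calcium entry at the active zone triggers fusion of synaptic vesicles. At the prepupal stage the larval nervous system is being remodelled into the adult one, and in whole animals neurons are a minority among many cell types. How many cells held the tagged protein at a region and how much each cell held cannot be told apart in such material.

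The 9 loci, each taken as the gene body with 5 kb on either side, held 11 of the 8998 optimal summits, the positions of highest signal in each peak. Of these, 2 were at a promoter of a member, which means no more than 500 bp from where one of its transcripts starts (TSS), 4 were in introns and 5 in the flanks. The flank summits mostly sat at other genes: 3 of the 5 lay within 500 bp of a neighbour's TSS. Promoter summits were found at 2 of 9 members, elav and futsch, beside 23.2% of all protein-coding genes, so that this count lay near the background. Intron summits outside the promoter window were found in 3 of 9 members, elav, fne and Sh, beside 10.5% of all genes. Anywhere in the body, 4 of 9 members held a summit, beside 16.3% of all genes, and in the whole locus 7 of 9, beside 55.9%. Para and cac, both voltage-gated channel genes, had none.

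Most members are long, and long genes collect more summits. Of the 9 members 7 have a body of at least 20 kb. In genes of that length a promoter summit was found in 39.6% and an intron summit in 63.5%, against 1 of 7 and 2 of 7 long members. A body summit was found in 67.1% of such genes against 3 of 7 long members, and a summit in the locus in 80.4% against 5 of 7. Each of these 4 counts was thus below the share over all genes of at least 20 kb, which were not matched to the members in length. The counts rest on 7 genes and no test was made.

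**Figure D1:**
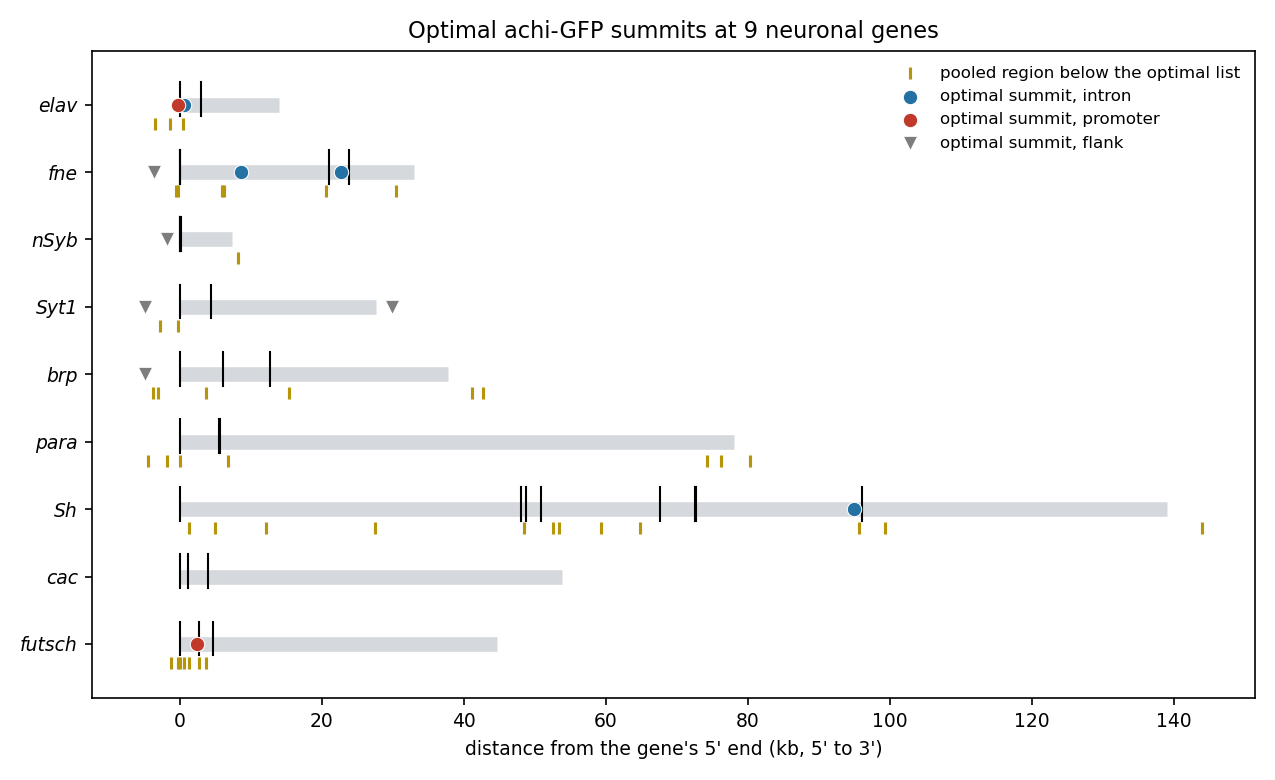
The 9 gene bodies (grey bars) are drawn to scale from the 5' end of each gene, in kb, with each TSS as a black line, optimal summits as circles or triangles and weaker regions of the pooled list as yellow ticks. Elav carries 2 summits at its 5' end, fne 2 in introns, Sh 1 in an intron and futsch 1 at an internal TSS, while para and cac carry none.

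The strongest summit of the set lay at the elav promoter. Elav, whose RNA-binding protein is the classic marker of fly neurons, is FBgn0260400 on the X chromosome (chrX:509235-523226, dm6, minus strand). Its promoter peak (chrX:523310-523666) had its summit at 523478, 252 bp upstream of the TSS used by 3 of its 4 transcripts. The summit ranked 266 in the optimal list, and 304, 326 and 212 in the full lists of replicates 1, 2 and 3. All 3 replicates thus placed it far inside the length of the optimal list, and the ranks were close together. Of 3234 protein-coding genes with a promoter summit, 268 (8.29%) had a stronger one than elav, and the median best rank was 3083.5. The same TSS also starts the noncoding lncRNA:enrr, and the summit lies in an intron of arg, the arginase gene, which runs on the opposite strand. The lists carry no strand, so the summit cannot be given to elav alone. The sequence is shown because it is the strongest region of the set. The 8 short words searched on both strands within 100 bp of each summit were TGACAG (the core site of TGIF-class homeodomains), TAATTA (a site of many other homeodomains), TATCGATA (the site of DREF), TATAAA (the TATA box), GAGAG (the site of GAGA factor), CAGGTAG (the site of Zelda), CACGTG (the E-box of Myc) and AGTGTA (a word searched as letters alone). The elav promoter window held none of them.

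elav promoter, chrX:523378-523578, dm6, minus strand: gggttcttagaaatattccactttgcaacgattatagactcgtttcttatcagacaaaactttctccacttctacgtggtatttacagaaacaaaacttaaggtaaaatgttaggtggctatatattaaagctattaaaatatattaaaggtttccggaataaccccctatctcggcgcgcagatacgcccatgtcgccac

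A further elav summit lay in the first intron of 3 of the 4 transcripts, at 522618, 608 bp downstream of the same TSS. Its peak was 137 bp wide (chrX:522564-522700), narrow beside the 430 bp of most peaks listed here. It also lies in introns of arg and lncRNA:enrr, so it cannot be given to elav alone either. It ranked 3560 in the optimal list and 3010, 5325 and 3301 in the replicates, so it was well below the promoter summit in every replicate. The replicate regions with these ranks also hold a weaker pooled summit at 522825 (rank 11977), 401 bp downstream of the TSS. Their ranks are therefore not particular to the intron summit. Its window holds GAGAG in several copies, a word that 22.5% of all optimal summits have within 100 bp, and the sequence is shown with each copy in capitals. The other elav TSS, used by 1 transcript, had no region within 500 bp in any replicate list.

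elav first intron, chrX:522518-522718, dm6, minus strand: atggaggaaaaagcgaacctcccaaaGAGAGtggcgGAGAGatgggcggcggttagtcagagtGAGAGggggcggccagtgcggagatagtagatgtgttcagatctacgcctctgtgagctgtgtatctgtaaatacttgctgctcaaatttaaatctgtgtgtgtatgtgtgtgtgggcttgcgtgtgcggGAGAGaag

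Fne (found in neurons) encodes a close relative of the ELAV protein and is FBgn0086675 on the X chromosome (chrX:12917477-12950417, plus strand, 4 TSSs). It carried 2 intron summits near the end of the optimal list. The first, at 12926067, lay 8583 bp downstream of the nearest TSS and ranked 8521, with ranks 14562, 7100 and 10337 in replicates 1 to 3. The other, at 12940168, lay 1104 bp upstream of an internal TSS and ranked 8700, with ranks 8361, 9166 and 11161. Each was inside the first 8998 regions of only 1 replicate, replicate 2 for the first and replicate 1 for the other, and these are the weakest summits of the set. One more summit at 12913909, 3568 bp upstream of the gene and outside any annotated gene, ranked 6788 (6916, 6306 and 8986 in the replicates).

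**Figure D2:**
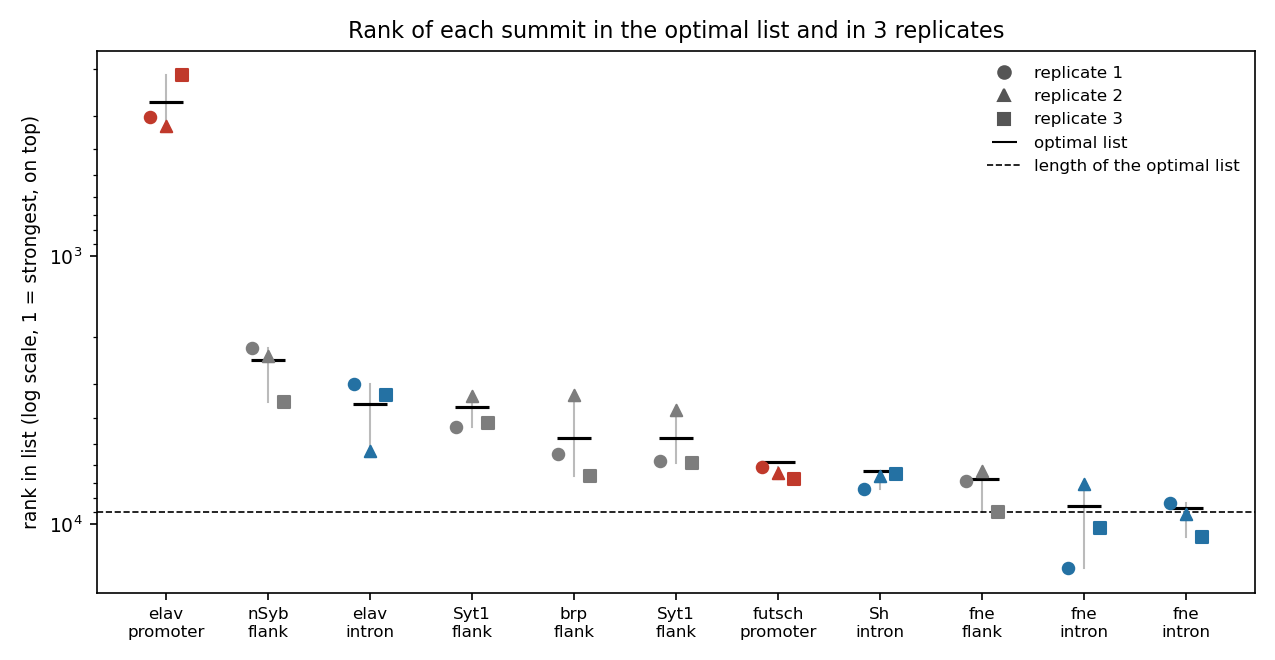
For each of the 11 summits the plot gives the rank in the optimal list (black bar) and in replicates 1 to 3 (symbols) on a log axis with rank 1 at the top; red is promoter, blue intron and grey flank. The elav promoter stands apart at ranks 212 to 326, and the only symbols below the dashed line at 8998 belong to the 2 fne introns.

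None of the 3 genes of synaptic vesicle release had a summit at its promoter or in its body. Over all protein-coding genes 23.2% had a promoter summit and 16.3% a body summit. In genes at least 20 kb long, as Syt1 and brp are, the shares were 39.6% and 67.1%. With 3 genes no test was made. NSyb encodes the neuronal synaptobrevin, the vesicle SNARE; it is the shortest member (FBgn0013342, chr3L:1630348-1637752, minus strand, 7.41 kb). No region of any replicate list lay within 500 bp of its 3 TSSs. The summit in its locus, at 1639570, belonged by position to the promoters of Bgb and Mettl2, 141 and 335 bp from their TSSs and 1818 bp from that of nSyb. Bgb encodes a partner of Runx-class transcription factors. That summit ranked 2447 in the optimal list and 2194, 2366 and 3494 in the replicates.

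Syt1 encodes synaptotagmin, the calcium sensor of vesicle fusion (FBgn0004242, chr2L:2772327-2799979, minus strand, 27.7 kb). Its flanks held 2 summits, both at other promoters. The summit at 2770061 lay 5 bp from a TSS of colt and 74 bp from one of HINT1, and ranked 4773 (5800, 3761 and 5902 in the replicates). The summit at 2804834 lay 427 bp from a TSS of daw, which encodes an activin-like ligand of the TGF-beta family, and ranked 3643 (4342, 3325 and 4173 in the replicates). At the main Syt1 TSS, used by 7 of 8 transcripts, a region was present in all 3 replicate lists at ranks 10204, 11198 and 16903. Its pooled rank of 10826 placed it outside the optimal list, and by pooled rank this was the strongest member promoter region that missed it.

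Brp encodes Bruchpilot, the scaffold of the active zone (FBgn0259246, chr2R:9503765-9541565, plus strand, 37.8 kb). Its only summit, at 9498896, lay 4869 bp upstream in an intron of Wnt2, a gene for a Wnt ligand, and ranked 4764 (5476, 3300 and 6594 in the replicates). Its main TSS, used by 12 of 14 transcripts, had no region in any replicate list.

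Of the 3 voltage-gated channel genes only Sh had an optimal summit. Para encodes the sodium channel of the action potential (FBgn0285944, chrX:16455027-16533096, minus strand, 78.1 kb), and cac encodes the calcium channel of the active zone (FBgn0263111, chrX:11931280-11985087, minus strand, 53.8 kb). The optimal summit nearest to any TSS was 19646 bp away for para and 15336 bp away for cac. Even among the weaker pooled regions the body of cac held none and that of para held 4. The TSS that serves 58 of the 60 para transcripts had no region in any replicate list. Genes of this length without a summit were not rare: 37 of 139 genes at least as long as para (26.6%) and 79 of 279 at least as long as cac (28.3%) had no body summit.

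Sh (Shaker), the founding gene of the voltage-gated potassium channels, is the longest member (FBgn0003380, chrX:17924307-18063247, minus strand, 139 kb, 8 TSSs). Its summit at 17968286 (chrX:17968071-17968500) lay 1061 bp upstream of an internal TSS that serves 1 transcript, in an intron of 16 of the 17 transcripts that is up to 85.7 kb long. It ranked 6334 in the optimal list and 7399, 6617 and 6469 in the replicates, inside the first 8998 regions of each. The sequence is shown because it carries TGACAG in 2 copies, in capitals. Of these 1 spans the summit position and the other lies at 17968267 to 17968272. Among 32 genes at least as long as Sh, 16 had 1 body summit or none.

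Sh intron, chrX:17968186-17968386, dm6, minus strand: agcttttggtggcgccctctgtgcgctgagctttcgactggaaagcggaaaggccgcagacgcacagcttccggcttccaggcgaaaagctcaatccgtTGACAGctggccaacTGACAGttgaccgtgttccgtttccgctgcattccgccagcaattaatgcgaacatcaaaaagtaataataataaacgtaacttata

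Futsch encodes a microtubule-associated protein of axons and synaptic terminals, related to vertebrate MAP1B (FBgn0259108, chrX:1409069-1453686, plus strand, 44.6 kb, 3 TSSs). Its promoter summit at 1411504 (chrX:1411289-1411718) lay 222 bp upstream of an internal TSS, within the first intron of 1 of the other transcripts. It ranked 5875 in the optimal list and 6135, 6424 and 6793 in the replicates, which differed little from each other. Of the protein-coding genes with a promoter summit, 76.8% had a stronger one than futsch. The TSS at the 5' end of the gene had regions in replicates 1 and 2 alone, at ranks 15874 and 23882. The sequence at the summit is shown for its TGACAG, in capitals, 80 bp from the summit and sharing a base with GAGAG.

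futsch promoter, chrX:1411404-1411604, dm6, plus strand: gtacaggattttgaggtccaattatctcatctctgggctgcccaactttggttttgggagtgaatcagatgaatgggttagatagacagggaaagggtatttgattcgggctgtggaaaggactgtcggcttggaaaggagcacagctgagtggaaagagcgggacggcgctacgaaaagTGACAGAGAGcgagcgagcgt

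Below the optimal list, promoter regions of the members were weak and often seen in 1 replicate only. The 9 genes have 31 annotated TSSs, of which 2 had an optimal summit within 500 bp, 7 had a region in all 3 replicate lists and 16 had none in any. The same shares over the TSSs of all genes are not given here. Gene by gene, 6 of 9 members had a pooled region of any rank within 500 bp of a TSS, beside 38.6% of all protein-coding genes. Fne varied most: the region at its 5' TSS ranked 7837 in replicate 3, inside the first 8998, but 15293 and 28720 in replicates 1 and 2. The first 8998 regions of replicates 1, 2 and 3 therefore held promoter summits of 2, 2 and 3 members, beside 26.6%, 23.9% and 22.6% of all protein-coding genes. The internal Sh promoters reached ranks of 19719, 13744 and 13617. For brp and cac the best ranks lay between 23638 and 28667, and replicate 3 had no region within 500 bp of a TSS of either gene. Para had a promoter region only in replicate 3, at rank 22662. These best regions of brp, cac and para had -log10 q-values of 0.202 to 0.384, well below 2, and may be background.

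**Figure D3:**
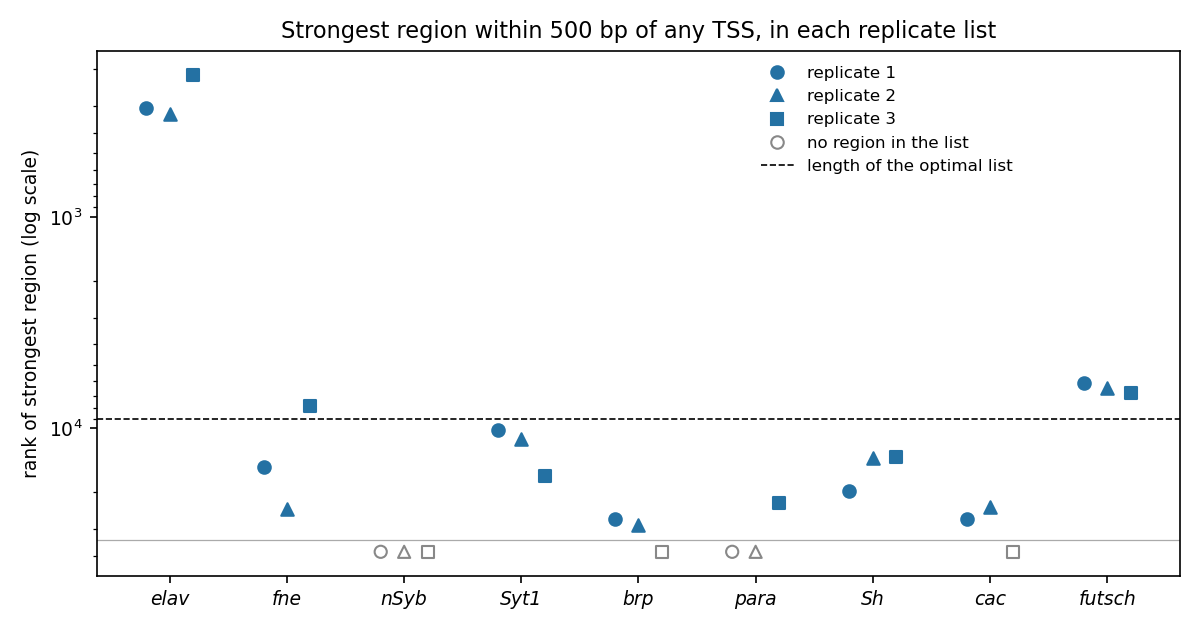
The plot shows, for each member, the rank of the strongest region within 500 bp of any of its TSSs in replicates 1 to 3, on a log axis with the strongest on top; open symbols mark lists with no region there. Elav and futsch lie above the dashed line at 8998 in all 3 replicates, fne in replicate 3 only, and nSyb has no region in any.

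Summits were sparse along the member bodies. Over 435 kb of gene body there were 5 optimal summits, or 0.115 per 10 kb. The elav promoter summit lies upstream of the body and is not among them. Genes of at least 20 kb had 0.629 per 10 kb when pooled, with a median of 0.446 and quartiles of 0 and 1.18, and the 6 arms had 0.672. The first 8998 regions of each replicate gave 4 summits in the member bodies and so 0.0919 per 10 kb in each of the 3, against 0.613 ± 0.0252 (SD, n = 3) for the long genes. The members differed among themselves: elav with 0.715 and fne with 0.607 per 10 kb were close to the pooled value of long genes, futsch had 0.224, Sh 0.0720 and the other 5 had 0. The 2 fne intron summits made up much of the total: both dropped out whichever replicate was left out, because neither was in 2 of the top lists, and the value without replicate 1, 2 or 3 was 0.0689. Of the 9 members 6 are on the X, where genes of at least 20 kb had 0.761 summits per 10 kb and the members 0.138. The latter value includes elav, whose body is shorter, at 14.0 kb. The weaker 21002 pooled regions, which may include background, gave 0.597 per 10 kb of member body against 1.75 for long genes.

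**Figure D4:**
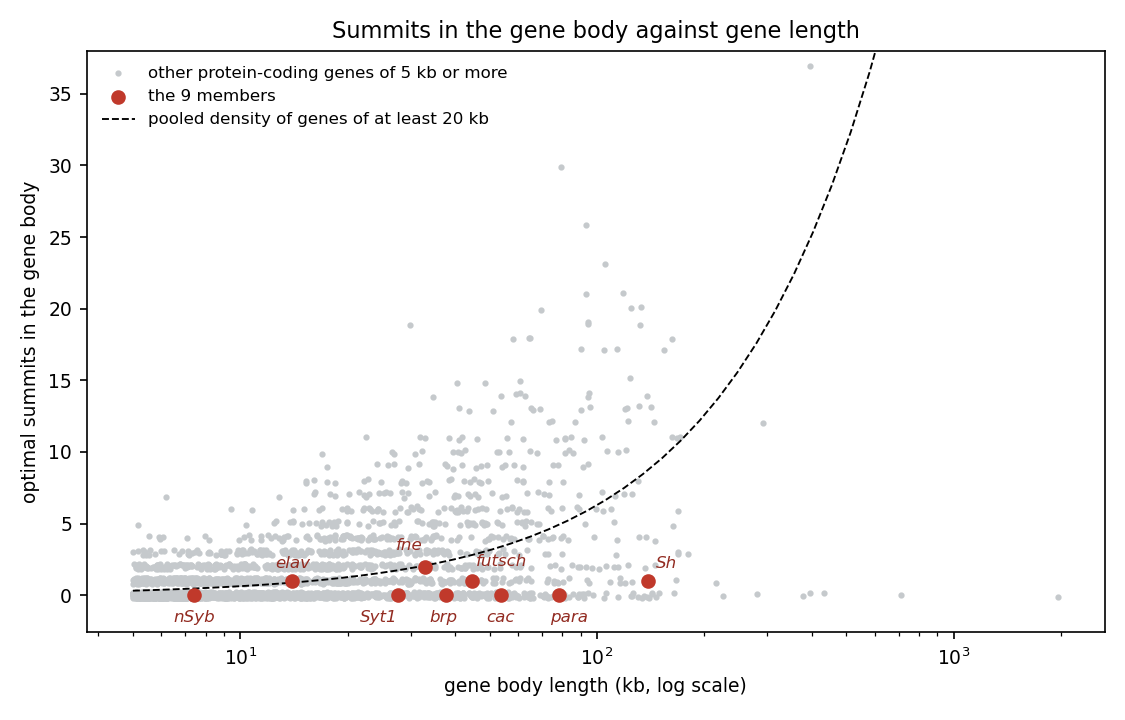
Each point is a protein-coding gene of 5 kb or more, with its body length on a log axis and its number of optimal summits in the body (grey points are spread vertically for visibility); the dashed curve is the pooled density of genes of at least 20 kb. Elav and fne lie on the curve, and the other members at 0 or 1 summit lie below it, together with many other long genes.

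The promoter and intron summits of the members were recovered in every replicate at 4 of 6 (66.7%, Wilson 95% interval 29.999% to 90.3%, counting error only), beside 72.1% of all optimal peaks. Recovery here means a place inside the first 8998 regions of all 3 replicates. All 5 flank summits, 3 of them at neighbours' TSSs, were recovered, which brought the total to 9 of 11 (81.8%, interval 52.3% to 94.9%). The 2 exceptions were the fne introns. TGACAG was present at 2 of the 11 summits, those of Sh and futsch, and at 7.84% of all optimal summits. TAATTA was at 3 of 11 (17.2% of all summits), TATAAA at 3 (37.2%), GAGAG at 3 (22.5%) and AGTGTA at 2 (16.9%), while TATCGATA, CAGGTAG and CACGTG were at none (2.30%, 0.789% and 1.70%). Every TATAAA and AGTGTA lay at a flank summit, as did 2 of the 3 TAATTA and 1 of the 3 GAGAG. The windows at the elav intron, Sh and futsch summits had a GC content of 51.7%, 50.2% and 50.7%, above the upper quartile of 38.8% over all optimal summits, whose median was 34.3%. The fne introns had 39.3% and 38.3% and the elav promoter 37.8%, near that quartile. The flank windows spread more widely, from 23.4% upstream of fne and 25.9% upstream of brp, both below the lower quartile of 29.9%, to 59.7% at the daw side of Syt1.

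Other genes of the same systems were read from lists written down with earlier results of these data known. Of 86 symbols 84 were found in the annotation, and 19 of the 84 genes had a promoter summit, near the 23.2% of all genes. Among the 44 that are at least 20 kb long, 11 had a promoter summit and 15 (34.1%) an intron summit, against 39.6% and 63.5% of all genes of that length. The bodies of all 84 together held 0.214 summits per 10 kb, against 0.603 for all protein-coding genes and 0.629 for those at least 20 kb long. The strongest promoter summits among them were those of NaCP60E and Fmr1.

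Among RNA regulators, 3 of 5 had a promoter summit. For this list and the others of this paragraph, the share of all protein-coding genes was 23.2%. Of genes at least 20 kb long it was 39.6%. The lists are short, and differences between them were not tested. Fmr1, the fly homologue of the fragile X gene, ranked 40 (41, 39 and 43 in the replicates), above elav. Rbp9, the remaining gene of the ELAV family, ranked 4006, and Imp ranked 7238 (7645, 10989 and 5761 in the replicates). The release machinery gave 1 of 14, the complexin gene cpx at rank 2634, while the first 8998 regions of replicates 1, 2 and 3 gave 4, 3 and 2. The cpx summit also lies within 500 bp of a TSS of a noncoding RNA. The SNARE genes Syx1A and Snap25, which act with nSyb, had no promoter or body summit, and Syn, the synapsin gene, had 1 intron summit. Active zone and adhesion genes gave 3 of 11, with the neurexin gene Nrx-1 at rank 3053, dlg1 at 3953 and Nlg2 at 8918 (10232, 8263 and 8658 in the replicates). Genes of vesicle endocytosis gave 3 of 8, EndoA at rank 6441 and the overlapping stnA and stnB with 1 common summit at 6881.

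Among the other channel genes, 3 of 6 for sodium and calcium channels and 4 of 14 for potassium and cation channels had a promoter summit, beside 23.2% of all genes. The first 8998 regions of replicates 1, 2 and 3 gave 2, 3 and 3 of the former and 4, 4 and 2 of the latter. Hk, the beta subunit of the Shaker channel, ranked 1188 (1331, 1400 and 1064 in the replicates). Stj, the alpha2-delta subunit that acts with cac, ranked 2831, and Ca-beta, a further calcium channel subunit, ranked 8943 with 8 intron summits; its promoter summit ranked 10374, 7111 and 9484 in the replicates, past 8998 in replicates 1 and 3. The sodium channel auxiliary gene tipE had no promoter or body summit. The gene qvr, a regulator of Shaker, had no promoter summit but 1 in its body. NaCP60E, of the sodium and calcium channel list, shared its peak, rank 25 (19, 27 and 29 in the replicates), with the ribosomal protein gene RpL41. Sei shared its peak, rank 1991, with gammaSnap1. Ih, a hyperpolarisation-activated channel, ranked 6971 (5934, 8315 and 9523 in the replicates). Among 7 genes of transmitter synthesis and transport 1 had a promoter summit, VGAT, the vesicular GABA transporter, at rank 6389 (5890, 6176 and 9341 in the replicates). Among 7 other cytoskeletal genes 1 had one, the kinesin gene unc-104 at rank 6602. None of the 12 transmitter receptor genes had a promoter summit, while 3 had intron summits. An intron summit was found in 10.5% of all genes and in 63.5% of those at least 20 kb long. Of the 12 receptor genes 7 are that long.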

How the data were processed

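The authors deposited peak lists, which were the starting point here. The deposited descriptions say that a replicate list comes from 1 alignment and a control, the pooled list from all 3 alignments, and the optimal list from comparing these by irreproducible discovery rate. Aligner, caller and their versions: not given in the sources used here. The deposited signal per region was read as a rank, list by list. The deposited -log10 of the q-value was used only to show how weak the regions far down the lists are. All 8998 optimal peaks are the 8998 strongest pooled regions. The dm3 versions were left unused.

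Genes and TSSs came from Ensembl release 115 (dm6), and sequences from RefSeq's Release 6 genome. All 9 members had equal coordinates in both. A summit took the rank of the strongest replicate region that holds it. In classing a summit, promoter came before untranslated region, exon and intron. Members and lists were chosen with earlier results of these data known. Named genes were the members, genes with a TSS within 500 bp of their locus summits, and up to 3 genes per other list with the strongest promoter summits. Named beyond this after their values were seen were Syx1A, Snap25, Syn, tipE, qvr, repo, gcm, wrapper, Actn, arg and Wnt2. Of 86 symbols 1 was matched by synonym, and TEH1 and Trh matched none. Labels do not say whether replicates share a day or batch. The counting functions were tested on simulated data. Python 3.11.15, numpy 2.4.6, pandas 2.3.3, scipy 1.17.1 and matplotlib 3.10.9 were used. Alternatives changed the flank, promoter window, peak list, replicate list length, overlap or word window, or left out a replicate, keeping optimal summits held by the first 8998 regions of both others.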

Additional observations from a re-analysis of the deposited data

How the results depend on the processing

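With flanks of 0, 2 and 10 kb the loci held 5, 7 and 26 summits in place of 11, and with a flank of 0 kb 4 members held one in place of 7. A promoter window of 200 bp left 0 members with a promoter summit in place of 2, since both summits lie more than 200 bp from the TSS. Among the stronger 50% of optimal peaks 4 locus summits in 3 members remained, with 1 promoter, 1 intron and 0.0230 body summits per 10 kb. Leaving out each replicate gave 2 intron summits in place of 4 and 0.0689 body summits per 10 kb in place of 0.115 in each case, because the fne summits dropped out, while the members with a promoter summit (2 to 2), the members with a locus summit (7 to 7) and the locus summits (9 to 9) stayed within 1.5 times. With replicate lists of 4499 regions 3 summits were in all 3 lists in place of 9, where the shorter lists set a ceiling. With a word window of 50 bp 1 summit held TGACAG in place of 2. The other values stayed within 1.5 times, and those from the pooled list at the length of the optimal list are equal by construction. No paired analysis was possible because there is 1 group. Depth is unknown, so weak regions cannot be told from none.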

Other observations

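Markers of other cell types were read in the same way. Of 9 glial genes 4 had a promoter summit, beside 23.2% of all protein-coding genes, and the first 8998 regions of replicates 1, 2 and 3 gave 4, 2 and 4. These were moody, a receptor of the blood-brain barrier glia, at rank 680 (532, 793 and 794 in the replicates), loco at 4403, nrv2 at 7086 and wrapper at 7911, the last 2 at ranks 10848 and 9410 in replicate 2. The glial transcription factor genes repo and gcm had none at the promoter or in the body. Of 17 sarcomere genes 4 had a promoter summit (23.5%), at the background of 23.2%. These were sls, the titin-related gene, at rank 2410 (4054, 2323 and 1843 in the replicates), Tm1 at 3340, Act87E at 7258 and Actn at 8234 (16793, 6914 and 6107 in the replicates). The glial bodies held 0.992 summits per 10 kb and the sarcomere bodies 0.217, beside 0.603 for all protein-coding genes. The glial value rests on 6 summits, 4 of them in loco, and none of the glial genes is as long as 20 kb.

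Among genes of at least 20 kb with the same promoter state, the one nearest to each member in body summits per 10 kb was Ptpmeg for elav (0.715 against 0.715), cpo for fne (0.606 against 0.607), bru1 for Sh (0.0722 against 0.0720) and Pde6 for futsch (0.225 against 0.224). For the 5 members with no body summit no such gene was sought.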
